A study of Mus musculus with 6 samples.

Results

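The genes described here are those of the insulin-like growth factor (IGF) system in mouse hypothalamus: the ligands Igf1 and Igf2, the receptors Igf1r and Igf2r, and the binding protein genes Igfbp2, Igfbp3, Igfbp4, Igfbp5, Igfbp6 and Igfbp7. They are 10 of the 50559 genes in the deposited count table, taken by symbol. RNA-seq of hypothalamus was made in 6 libraries, 3 labelled wild type and 3 labelled SRC1 KO, in which the gene for SRC-1 was deleted. SRC-1 (steroid receptor coactivator 1, encoded by Ncoa1) binds nuclear receptors and helps them to activate transcription, and the series title places the study in aging and cognitive decline. The labels give no age, sex or strain, do not say how or in which cells the gene was deleted, and do not say that replicates are separate animals, so p-values measure the spread between these libraries, which may be technical.

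IGF-I and IGF-II are small secreted proteins related to insulin. They signal through the tyrosine kinase receptor IGF1R, while IGF2R takes up IGF-II and carries it to the lysosome. The IGF binding proteins are secreted too, and they hold the ligands outside cells, extend their life and limit or aid their access to the receptor. In the adult brain Igf2 is made mainly by the meninges and the choroid plexus, and Igf1 by some neurons and by glia.

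Totals ran from 36613507 to 46755553 counts a library, and 20257 genes had enough counts to be tested. Ncoa1 lay between 122.3 and 130.1 CPM in the wild-type libraries and between 37.2 and 40.3 CPM in the knockout libraries, so each library matched its label. CPM are a gene's counts scaled to the size of its library, with TMM scaling between libraries. All 10 markers of the tissue, peptide genes such as Hcrt, Pmch, Avp and Oxt, had at least 50 counts in every library. None of the 10 passed in edgeR, with 6 log2 fold changes below 0 and 4 above. The groups did not overlap for 3 of them, all lower in the knockout: Pomc (-2.26), Agrp (-1.999) and Npy (-1.63). Such a gap was seen in 17.6% of all tested genes. For Npy it was narrow, with 13.9 CPM in wild-type library 1 and 13.6 CPM in knockout library 3. Whether the libraries held the same parts of the hypothalamus was not tested. Of the marker lists for other cells, 7 of 9 tanycyte and 4 of 8 ciliated ependymal genes passed as lower in the knockout. So did 1 of 12 meningeal and 1 of 7 tested pituitary genes, while 6 of 10 oligodendrocyte genes passed as higher. Among all tested genes 0.592% passed as lower and 0.242% as higher. Pituitary markers had the lowest median log2 fold change (-2.04), at summed levels of 12.5 to 24.2 CPM in wild type and 2.94 to 12.5 CPM in the knockout, with Gh, Prl, Pou1f1 and Fshb at 0 in some libraries.

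No gene of the IGF system passed the threshold between the genotypes. In edgeR's quasi-likelihood test 0 of the 10 had a Benjamini-Hochberg adjusted p under 0.05, where 0.834% of all tested genes did. At an unadjusted p under 0.05 there were 4 (Igfbp4, Igfbp3, Igfbp6 and Igf2r), all with lower values in the knockout, against 13% of all genes. DESeq2 called Igfbp4 and Igfbp6, where it called 4.49% of all genes. Limma-voom called 0, with and without sample quality weights, where it called 1.98% and 0.508% of all genes. The median log2 fold change of the 10 was -0.21, with 8 below 0, and that of all tested genes was 0.0042, with 48.9% below 0. The values of Igf2r, Igfbp3 and Igfbp4 did not overlap between the groups, and such a gap was seen in 17.6% of all genes.

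**Figure D1:**
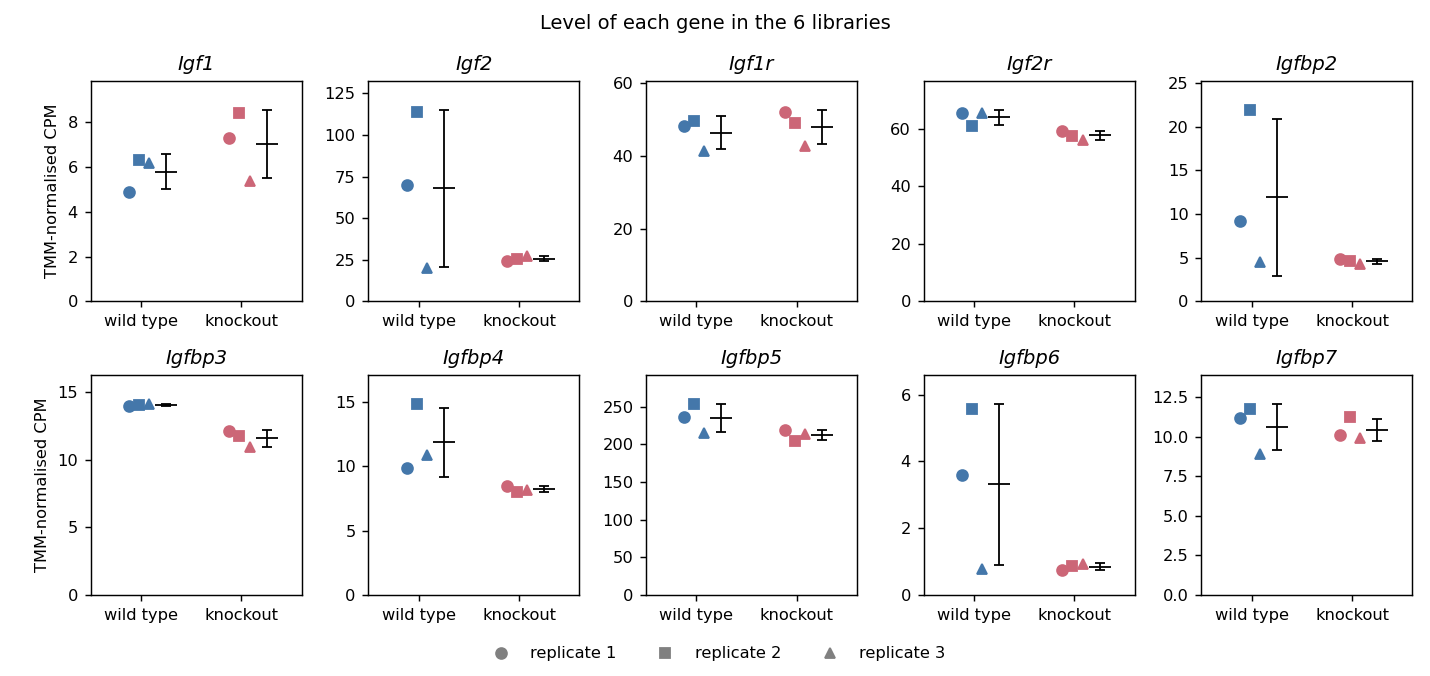
TMM-normalised CPM (vertical axes, each from 0) of the 10 genes in the 3 wild-type (blue) and 3 knockout (red) libraries; marker shapes give the replicate number, and black lines the mean ± SD. Igf2, Igfbp2 and Igfbp6 were high in wild-type libraries 1 and 2 and near the knockout level in wild-type library 3.

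Igf2 was the ligand that varied most (chromosome 7, 142204505 to 142220566, minus strand, GRCm39). Its level was 70.2, 114.0 and 19.8 CPM in wild-type libraries 1 to 3 and 24.1, 25.7 and 27.4 CPM in the knockout. Wild-type libraries 1 and 2 were above every knockout library, and wild-type library 3 was below all of them. The means were 68.0 ± 47.2 and 25.7 ± 1.66 CPM (SD, n = 3 each). On the log2 scale the knockout differed by -1.40 ± 0.68 (SE; 95% interval -3.25 to 0.45), with an adjusted p of 0.518 in edgeR. Without wild-type library 3 Igf2 passed (-1.84 ± 0.21, adjusted p 0.0369). Without wild-type libraries 1 and 2, a choice made after seeing the data, the sign turned (0.38 ± 0.12, adjusted p 0.248), with the lone wild-type library assumed to vary like the others. With library 2 alone left out the log2 fold change was -0.81, with an adjusted p of 0.682. Over all alternatives the adjusted p of Igf2 ran from 0.0369 to 0.863.

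Igfbp2 and Igfbp6 showed the same split among the wild-type libraries. Igfbp2 encodes a binding protein abundant in cerebrospinal fluid and lies on chromosome 1 (72863639 to 72891633, plus strand). Its level was 9.24, 21.9 and 4.52 CPM in wild type and 4.84, 4.61 and 4.27 CPM in the knockout. The third wild-type value fell inside the knockout range, and the other two were above it. The log2 fold change was -1.38 ± 0.63 (95% interval -3.02 to 0.27), with an adjusted p of 0.474. It was -0.59 without wild-type library 2 and 0.015 without wild-type libraries 1 and 2, and Igfbp2 passed in no fit.

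Igfbp6 encodes a binding protein that prefers IGF-II over IGF-I (chromosome 15, 102052621 to 102057947, plus strand). Its counts were low, at 147, 211 and 32 in the wild-type libraries against 31, 34 and 43. As CPM these were 3.60, 5.57 and 0.770 against 0.739, 0.857 and 0.942. As with Igfbp2, the third wild-type library was inside the knockout range. Its difference of -1.96 ± 0.71 on the log2 scale (95% interval -3.72 to -0.20) was the largest in size of the 10, with an adjusted p of 0.333. Igfbp6 passed with DESeq2 (adjusted p 0.00436) and without wild-type library 3 (-2.43 ± 0.24, adjusted p 0.00566). Without wild-type libraries 1 and 2 it was 0.14 ± 0.37, and over all alternatives the adjusted p ran from 0.00436 to 0.916. The stricter filter, at least 1 CPM in at least 3 libraries, removed it.

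Like these 3 genes, markers of meningeal fibroblasts were highest in wild-type library 2. Unlike them, 4 of the 12 also stayed above the knockout in wild-type library 3. The summed level of the 12 markers, none of which is an IGF gene, was 124.9, 226.8 and 56.9 CPM in wild type and from 45.2 to 47.7 CPM in the knockout. In wild type all 12 markers, like Igf2, Igfbp2 and Igfbp6, were highest in library 2, next in library 1 and lowest in library 3. That order alone was not particular to them, since Igf1r, Igfbp5, Igfbp7 and the summed endothelial and mural markers had it too. Those 3 genes differed far less among the wild-type libraries, by 1.20-fold, 1.17-fold and 1.31-fold. None of the 12 meningeal markers was at 0 in any library, and the lowest count was 29. In edgeR only Lum, a matrix proteoglycan, passed among them (-1.50 ± 0.28 on the log2 scale, adjusted p 0.0458), and all 12 log2 fold changes were below 0, with a median of -1.61. DESeq2 called 5 of them (4.49% of all genes), limma-voom 1 (0.508%) and limma-voom with quality weights 2 (1.98%). The values of Dcn, Islr, Lum and Ogn did not overlap between the groups, as in 17.6% of all genes. In wild-type library 3 these 4 and the marker sum were thus above every knockout library, where Igf2, Igfbp2 and Igfbp6 were not. The rest of the 12 were not either. Aldh1a2 (1.32 CPM against 2.10 to 4.16), Col1a1 (3.59 against 3.78 to 4.69) and Slc6a13 (2.09 against 3.15 to 3.64) were below every knockout library there, as Igf2 was. Dcn had 18.5 CPM there against 6.30 to 9.34 CPM in the knockout, so the gap in the sum owed much to it.

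The levels of the 3 genes were then set against the markers within each library. Igf2 differed 5.76-fold between its highest and lowest library and the marker sum 5.02-fold, while the ratio of Igf2 to the marker sum differed 1.74-fold. That ratio was 0.562, 0.503 and 0.348 among wild-type libraries, against knockout values of 0.505, 0.556 and 0.606, and the groups overlapped. For Igfbp2 the ratio ran from 0.0740 to 0.102, and for Igfbp6 from 0.0135 to 0.0289, with overlap between the groups in both. The part of the meningeal cells in these differences was not tested. In whole tissue, fewer cells of a type and less RNA per cell cannot be told apart.

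Markers of choroid plexus, the other main source of Igf2, were mixed in library order, and most of those tested were lower in the knockout. The 12 summed to 125.4, 93.7 and 98.5 CPM in wild type and 71.9, 64.3 and 88.6 CPM in the knockout. That sum was mostly Prlr, the prolactin receptor gene, and Clic6. In wild type 4 of the 12 (Ttr, Kcnj13, Aqp1 and Tmem72) had the library order of Igf2. Ttr, which encodes transthyretin, had 5.91, 10.1 and 0.698 CPM in wild type and 0.262, 6.07 and 0.701 CPM in the knockout. Kcnj13, a potassium channel gene, had 2.40, 5.99 and 0.361 CPM in wild type and 0.214 to 0.373 CPM in the knockout. Both were thus high in wild-type libraries 1 and 2, and Ttr was high in knockout library 2 as well, where Igf2 was not. Ttr, Kcnj13, Aqp1 and Tmem72 were named after their values were seen, and the part of choroid plexus cells was not tested. Slc4a5 was the only one of the 12 at 0 in a library. Of the 10 tested 0 passed in edgeR, with 5 at an unadjusted p under 0.05, while DESeq2 called 4, limma-voom 0 and limma-voom with quality weights 3. The shares of all genes were 0.834%, 13%, 4.49%, 0.508% and 1.98%, in that order. All 5 were lower in the knockout, and 8 of the 10 log2 fold changes were below 0, with a median of -0.69. Among all genes 48.9% were below 0. The groups did not overlap for 4, against 17.6% of all genes: Folr1 (-1.63), F5 (-1.09), Aqp1 (-0.73) and Kl (-0.65). These 4 were thus above every knockout library in wild-type library 3, where Igf2 was not. Folr1 and Aqp1 were under 1 CPM throughout. Tanycyte markers summed to between 147.4 and 204.1 CPM in wild type, highest in library 3 where Igf2 was lowest, and to between 68.3 and 73.2 CPM in the knockout.

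**Figure D2:**
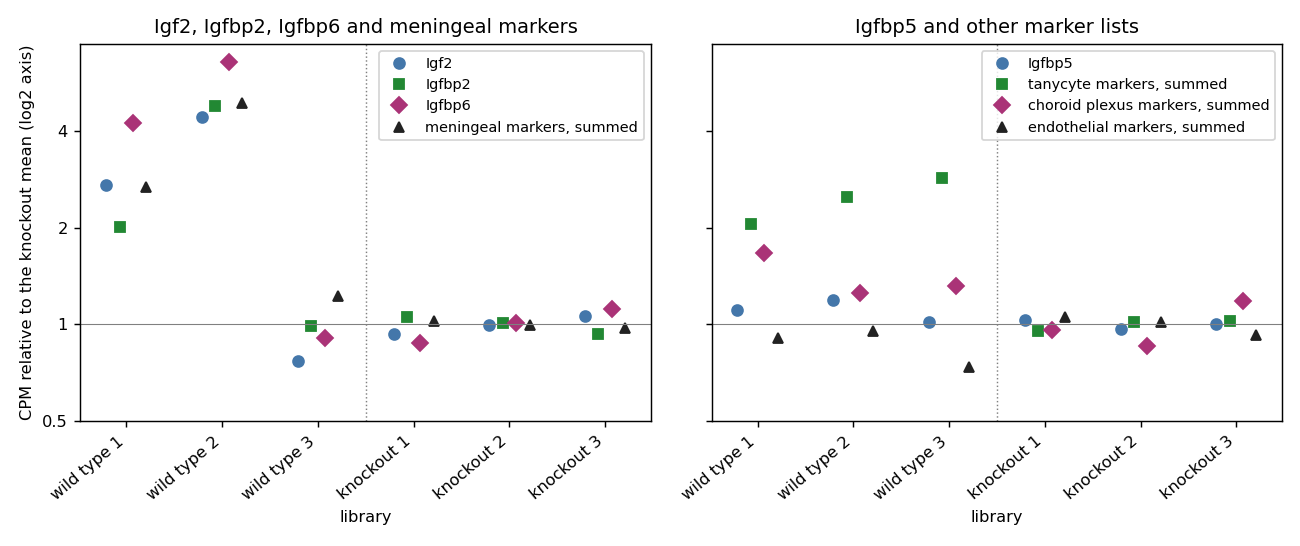
Level in each library relative to the mean of the 3 knockout libraries (vertical log2 axis) for Igf2, Igfbp2, Igfbp6 and the summed meningeal markers (left), and for Igfbp5 and the summed tanycyte, choroid plexus and endothelial markers (right). On the left all 4 series were highest in wild-type library 2, at 4.43 (Igf2), 4.80 (Igfbp2), 6.59 (Igfbp6) and 4.89 (markers) times the knockout mean, and on the right Igfbp5 stayed between 0.965 and 1.19.

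Genes whose profile was most like those of Igf2 and Igfbp2 were then looked up among 13896 tested genes of at least 1 CPM. Likeness was the root-mean-square difference between log2 CPM profiles, each centred on its own mean over the 6 libraries, so a small value means a similar profile. Nearest to Igf2 were Slc6a20a, an amino acid transporter (0.13), Dpp4, a dipeptidyl peptidase (0.18), and Thbd, thrombomodulin (0.20). Next came Ptgds, prostaglandin D synthase (0.22), and Serpind1, heparin cofactor II (0.22). Igf2 itself departed from its own mean by 0.93 on this scale. Igfbp6 was the sixth nearest gene to Igf2 (0.25) and Igfbp2 the eleventh (0.26), while Igfbp6 was the 54th nearest to Igfbp2 (0.42). Nearest to Igfbp2 were Pcolce, which aids collagen processing (0.10), Spp1, osteopontin (0.11), the carbonic anhydrase Car13 (0.15), the proteoglycan Podn (0.17) and Mrc1, the mannose receptor of macrophages (0.18). None of these 10 genes passed, with adjusted p from 0.303 for Car13 to 0.621 for Thbd. They were chosen for profiles close to Igf2 or Igfbp2, which did not pass, so that outcome was largely set by the choice. Ptgds had 777, 1608 and 229 CPM in wild type and between 236 and 258 CPM in the knockout.

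Since Igf2, Igfbp2 and Igfbp6 were all high in the same 2 wild-type libraries, the bases before their start sites are shown, 120 bases each, 5′ to 3′ on the gene's strand. The sequences are from RefSeq promoters of GRCm38.p6, and each was found once, without a mismatch, on its chromosome of GRCm39, whose coordinates are given. Capitals mark the GC box GGGCGG, or CCGCCC where it is on the other strand. Igf2 has 4 listed start sites, Igfbp2 has 2, and windows that lie over an annotated exon of the same gene are left out.
Igf2, start at 142215008 (chr7:142215009-142215128, minus strand): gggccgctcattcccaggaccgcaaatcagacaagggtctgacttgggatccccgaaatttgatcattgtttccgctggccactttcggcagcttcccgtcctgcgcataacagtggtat
Igf2, start at 142211233 (chr7:142211234-142211353, minus strand): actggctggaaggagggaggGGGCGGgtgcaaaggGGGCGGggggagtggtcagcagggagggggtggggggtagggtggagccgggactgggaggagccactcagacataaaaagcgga
Igfbp2, start at 72863639 (chr1:72863519-72863638, plus strand): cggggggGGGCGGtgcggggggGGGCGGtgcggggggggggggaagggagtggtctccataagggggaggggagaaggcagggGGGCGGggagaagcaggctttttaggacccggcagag
Igfbp6, start at 102052621 (chr15:102052501-102052620, plus strand): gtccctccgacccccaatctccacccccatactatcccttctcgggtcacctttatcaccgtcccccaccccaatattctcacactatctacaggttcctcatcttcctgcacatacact

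The GC box was found 3 times before Igfbp2 and 2 times before the downstream Igf2 start, and these letters were not in the other 2 windows. Of the windows left out, that of the Igf2 start at 142212541 held it 1 time. The GC box was not particular to these genes, since the windows of Igfbp7, Igf2r and Igf1r held it 4, 3 and 2 times. Those of Igf1, Igfbp3, Igfbp4 and Igfbp5 did not hold it. Of these comparison windows, those of Igf1r, Igf1, Igfbp3 and Igfbp4 lie over an annotated exon of the same gene. The GC box was in 26.5% of 32851 promoter windows of the same length. The TATA box letters TATAAA, searched on both strands, were in none of the 4 windows and in 6.34% of all. The windows of Igfbp2 and of the downstream Igf2 start were 75% and 68.3% G or C, and that of Igfbp6 was 53.3%. The counts cover all exons together, so the share of Igf2 transcripts from each start was not measured.

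Igf1, the other ligand, lay on the opposite side of 0 (chromosome 10, 87694127 to 87772909, plus strand). It had 4.88, 6.31 and 6.18 CPM in wild type and 7.29, 8.42 and 5.39 CPM in the knockout. Knockout libraries 1 and 2 were above all wild-type libraries, and knockout library 3 was within their range. The log2 fold change was 0.28 ± 0.18 (95% interval -0.11 to 0.67), with an adjusted p of 0.584. It was 0.44 without knockout library 3 and 0.13 without knockout library 2, and Igf1 passed in no fit. Markers of microglia, a known source of Igf1, summed to between 266.7 and 283.8 CPM in wild type and 275.9 and 311.3 CPM in the knockout. None of those 10 markers was at 0, and 0 passed in edgeR, with 2 at an unadjusted p under 0.05 and 1 called by DESeq2. The last 2 shares were 13% and 4.49% of all genes.

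Marker sums and the ratios to them used plain CPM, in which longer genes weigh more. Otherwise levels of different genes were compared only per length, as CPM per kb of annotated exon. On that scale Igf2 was the more abundant ligand in every library. Its ratio to Igf1 was 21.7, 27.2 and 4.82 among wild-type libraries, against knockout values of 4.97, 4.60 and 7.66. The third wild-type library thus had a ratio near those of the knockout. Unused exons in the annotation lower a per-length value, and this differs from gene to gene.

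The receptors were steady across the 6 libraries. Igf1r, the signalling receptor, had 48.1, 49.7 and 41.3 CPM in wild type and 51.9, 49.1 and 42.8 CPM in the knockout (chromosome 7, 67601486 to 67883416, plus strand). The groups overlapped almost fully, with a log2 fold change of 0.05 ± 0.094 (95% interval -0.16 to 0.26) and an adjusted p of 0.897. Its exons share 20.4% of their length with Gm51487 or Pgpep1l, and reads there can go uncounted. Igf2r, the uptake receptor, had 65.5, 60.8 and 65.3 CPM in wild type and 59.1, 57.5 and 56.2 CPM in the knockout (chromosome 17, 12901293 to 12988593, minus strand). Every knockout library was below every wild-type library, by a small margin. The log2 fold change of Igf2r was -0.15 ± 0.064, a level 0.902 times that of wild type, with an adjusted p of 0.359. Per kb, Igf1r stood at 0.435 to 0.563 of Igf2r in wild type and 0.524 to 0.605 in the knockout, so the ranges overlapped.

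Igfbp5 was the most abundant gene of the system and varied little between libraries. It encodes a matrix-binding IGF binding protein and lies tail to tail with Igfbp2 on chromosome 1 (72897224 to 72914024, minus strand), 5590 bases away. It had 236.9, 253.6 and 215.9 CPM in wild type and 219.4, 205.3 and 213.5 CPM in the knockout, and the groups overlapped at wild-type library 3 and knockout library 1. The fitted log2 difference was -0.15 ± 0.075 (95% interval -0.31 to 0.020), with an adjusted p of 0.465. Within wild type Igfbp5 differed 1.17-fold between its highest and lowest library, where its neighbour Igfbp2 differed 4.85-fold.

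Igfbp4 and Igfbp3 were the binding protein genes whose groups did not overlap. Igfbp4, whose product is cut by the protease PAPP-A to release IGF, had 9.86, 14.9 and 10.9 CPM in wild type and 8.46, 7.99 and 8.20 CPM in the knockout (chromosome 11, 98930820 to 98943481, plus strand). Wild-type library 2 was again the highest, and the 3 knockout libraries lay close together. The log2 fold change was -0.53 ± 0.15 (95% interval -0.85 to -0.20), with an adjusted p of 0.139, the lowest of the 10. It passed with DESeq2 (0.0386) and with no expression filter (0.00324), and its adjusted p ran up to 0.386 without knockout library 1. Without wild-type library 2 the log2 fold change was -0.33, and without wild-type libraries 1 and 2 it was -0.40.

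Igfbp3, the main carrier of IGF in blood, had 13.9, 14.1 and 14.2 CPM in wild type and 12.1, 11.8 and 10.9 CPM in the knockout (chromosome 11, 7156086 to 7165498, minus strand). The wild-type libraries were within 1.01-fold of each other, all above the knockout. On the log2 scale the difference was -0.28 ± 0.085 (95% interval -0.47 to -0.087), with an adjusted p of 0.183, and from 0.137 to 0.482 over the alternatives. The sign of Igfbp3 was the same in all 15 alternatives, from -0.31 to -0.23. Igfbp1, its neighbour 3539 bases away, had at most 4 counts in any library.

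Igfbp7, which binds IGF weakly and is a gene of vessel walls, had 11.2, 11.7 and 8.93 CPM in wild type and 10.1, 11.2 and 9.93 CPM in the knockout (chromosome 5, 77497087 to 77555892, minus strand). The groups overlapped, with a log2 fold change of -0.03 ± 0.12 (95% interval -0.29 to 0.24) and an adjusted p of 0.960. Endothelial markers summed to between 166.4 and 216.3 CPM in wild type and 209.3 and 237.8 CPM in the knockout. Mural cell markers summed to between 160.8 and 240.9 CPM and between 209.6 and 227.0 CPM. In wild type Igfbp7 and both sums were lowest in library 3. None of the 10 endothelial markers was at 0, Tagln was the mural marker at 0 in a library, and the part of these cells was not tested.

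**Figure D3:**
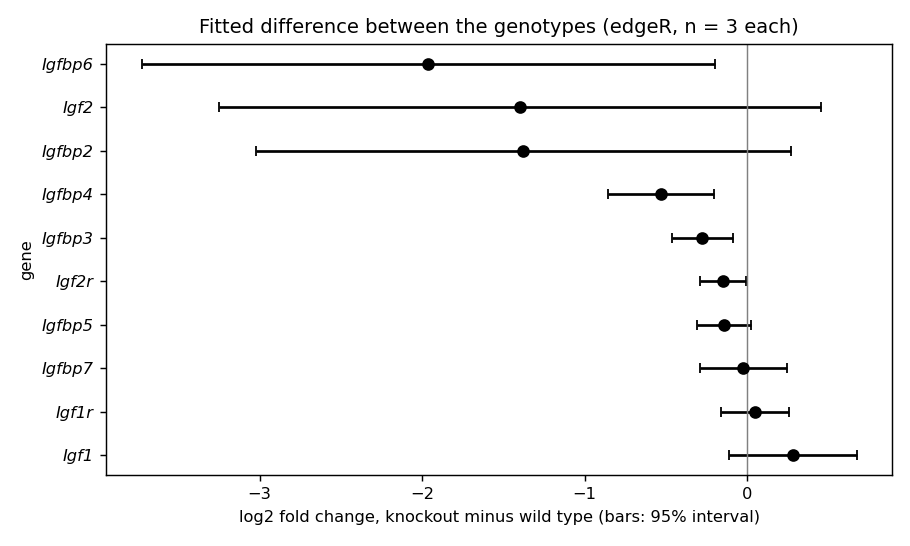
Log2 fold change of each gene, knockout minus wild type (horizontal axis), from edgeR with its 95% interval, n = 3 libraries each. Igf2, Igfbp2 and Igfbp6 had the widest intervals, the interval of Igf2 running from -3.25 to 0.45, and none of the 10 passed after adjustment over all genes.

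In order of level, Igfbp5 led both groups at 40.2 ± 3.23 CPM per kb in wild type and 36.3 ± 1.21 in the knockout (SD, n = 3 each), with no overlap with the next gene. In wild type Igf2 (11.9 ± 8.27), Igfbp7 (8.74 ± 1.22), Igf2r (7.15 ± 0.299) and Igfbp2 (6.92 ± 5.24) followed. Of these neighbours only Igfbp7 and Igf2r had library values that did not overlap. Igfbp4 (3.66 ± 0.818), Igf1r (3.57 ± 0.345), Igfbp3 (3.50 ± 0.0253) and Igfbp6 (2.57 ± 1.87) could not be ordered beyond their spread. Igf1 had the lowest mean at 0.674 ± 0.0923 CPM per kb, but it overlapped Igfbp6, which was below it in wild-type library 3. In the knockout the order was Igfbp7 (8.59 ± 0.592), Igf2r (6.45 ± 0.166), Igf2 (4.51 ± 0.292) and Igf1r (3.70 ± 0.362), each apart from its neighbours. Igfbp3 (2.89 ± 0.156), Igfbp2 (2.66 ± 0.165) and Igfbp4 (2.53 ± 0.0727) came next, with Igfbp2 overlapping both others, and Igf1 (0.819 ± 0.178) and Igfbp6 (0.656 ± 0.0793) were last and overlapped.

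The make-up of the binding protein transcripts followed from these levels. Igfbp5 made up 62.9%, 55.4% and 67.9% of the summed CPM per kb of the 6 genes in wild type and from 66.1% to 68.7% in the knockout. Igfbp2 made up 8.35%, 16.3% and 4.84% in wild type and from 4.67% to 5.13% in the knockout. Wild-type library 3 was inside or next to the knockout range for both. The summed binding proteins exceeded the summed ligands in every library, by 5.0, 3.77 and 13.0 times among wild-type libraries, against 10.8, 9.68 and 9.78 times among knockout ones.

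**Figure D4:**
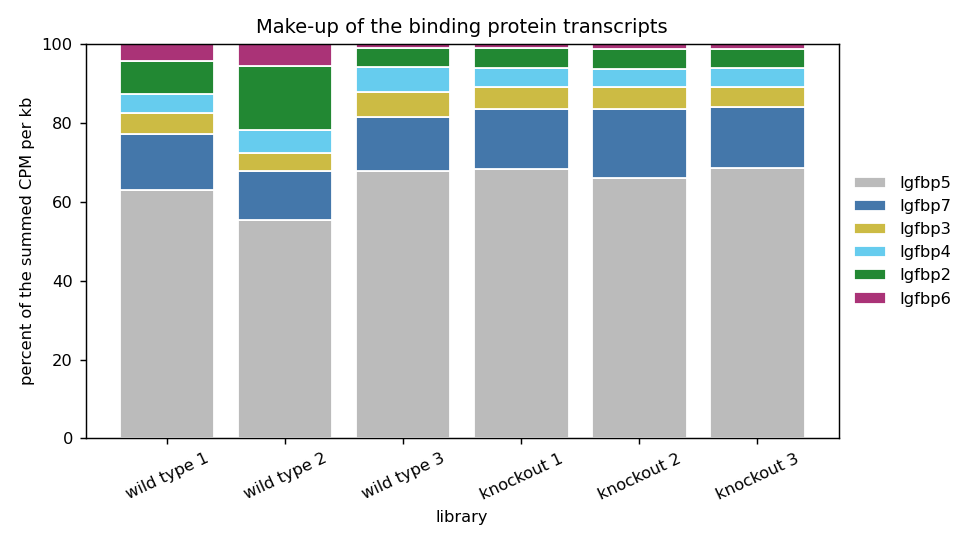
Percent of the summed CPM per kb of the 6 binding protein genes (vertical axis) taken by each gene in each library. Igfbp5 took the largest share throughout, and the shares of Igfbp2 and Igfbp6 were largest in wild-type library 2, at 16.3% and 5.53%.

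Other genes of the IGF axis were read from the same fit. Of 28 such genes 23 were tested, and 0 passed in edgeR, where 0.834% of all genes did. At an unadjusted p under 0.05 there were 5, of which 4 had lower values in the knockout, against 13% of all genes. DESeq2 called 2, against 4.49% of all genes, and limma-voom 0 with and without quality weights. The groups did not overlap for 6 of the 23, against 17.6% of all genes. The median log2 fold change was -0.14, with 17 of 23 below 0. The 5 untested genes, Igfbp1, Igfals, Igf2bp1, H19 and Igf2os, had at most 19 counts in any library.

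Among genes that free IGF from its carriers, Pappa2, a protease that cuts IGFBP-3 and IGFBP-5, had 2.82, 2.27 and 2.60 CPM in wild type and 1.55, 1.81 and 1.82 CPM in the knockout, with no overlap (-0.57 ± 0.18, adjusted p 0.197). Htra1, a secreted serine protease, had 68.0, 91.9 and 111.8 CPM in wild type and between 68.2 and 71.3 CPM in the knockout (-0.38 ± 0.17, adjusted p 0.412). Htra1 passed without wild-type library 1 (-0.55, adjusted p 0.0421) and without wild-type libraries 1 and 2 (-0.68, adjusted p 0.0121), with values up to 0.779 over its alternatives. Of 5 genes in this list 0 passed in edgeR, with 1 at an unadjusted p under 0.05 (13% of all genes) and 0 called by the other tools.

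In the growth hormone axis, which drives Igf1 in liver, the growth hormone receptor gene Ghr had 32.9, 27.2 and 30.7 CPM in wild type and 20.3, 23.5 and 25.4 CPM in the knockout, with no overlap (-0.39 ± 0.099, adjusted p 0.106). Ghr passed with DESeq2 (0.0246) and with no filter (0.00188), and its adjusted p reached 0.390 without knockout library 1. Stat5b, which carries the signal of that receptor, was at -0.13 ± 0.063 (adjusted p 0.454). All 6 genes of that list were below 0, with a median of -0.23.

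Downstream of the receptors, Irs4, an insulin receptor substrate prominent in hypothalamus, had 183.3, 140.8 and 183.2 CPM in wild type and 102.3, 108.6 and 145.1 CPM in the knockout. The groups met at wild-type library 2 and knockout library 3, and the log2 fold change was -0.51 ± 0.16 (adjusted p 0.235; 0.00678 in DESeq2, and from 0.00678 to 0.581 over all alternatives). Its exons share 26.3% of their length with Gm15295. The adaptor Grb14 was at 0.23 ± 0.092 (adjusted p 0.312). The insulin receptor gene Insr was at 0.02 ± 0.061 (adjusted p 0.944) and its relative Insrr at -0.69 ± 0.41 (adjusted p 0.557).

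The remaining lists held few tested genes. Igf2bp2, which binds Igf2 mRNA, averaged 0.692 ± 0.0924 CPM in wild type and 0.356 ± 0.213 in the knockout (SD, n = 3 each; adjusted p 0.364), and Igf2bp3 was at 0.19 ± 0.15 (adjusted p 0.705). Igfbpl1, a gene related to the binding proteins, was at -0.28 ± 0.87 (adjusted p 0.939), with 2.67 CPM in wild-type library 1 and 1.38 CPM or less elsewhere. Airn, the imprinted RNA antisense to Igf2r, was at 0.27 ± 0.21 (adjusted p 0.687). H19, which shares its imprinting control with Igf2 72621 bases away, was at 8, 8 and 13 counts among wild-type libraries, against 9, 3 and 5 counts.

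**Figure D5:**
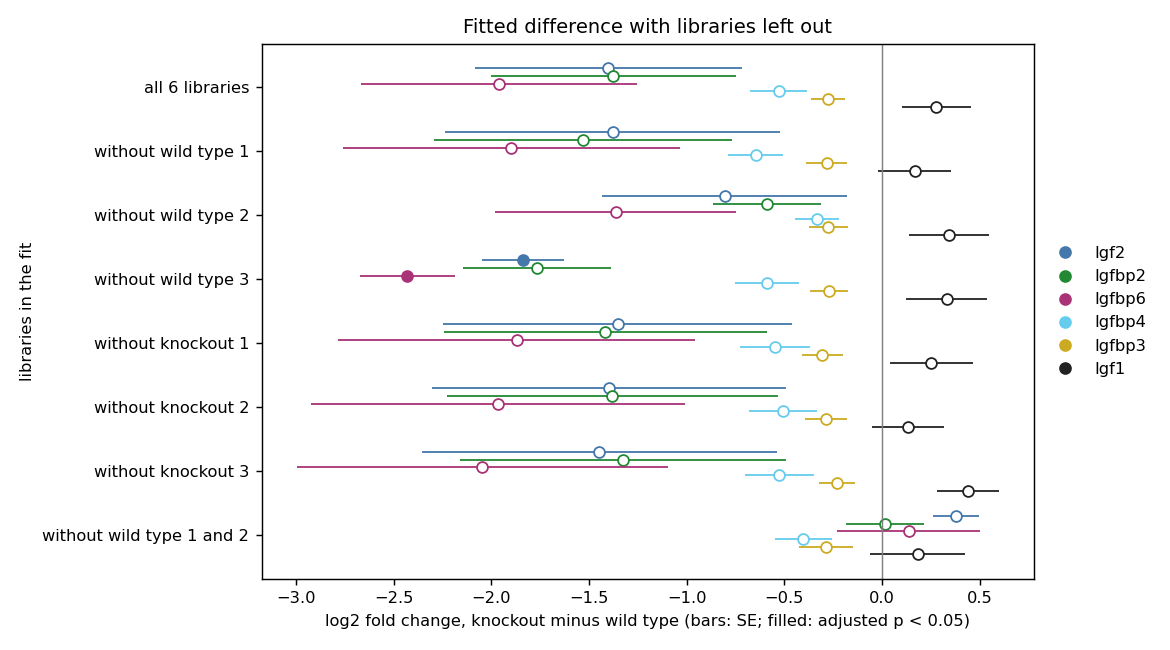
Log2 fold change, knockout minus wild type (horizontal axis, bars SE), of 6 genes with all libraries, with 1 library left out, and without wild-type libraries 1 and 2; filled points had an adjusted p under 0.05 in edgeR. Among these fits Igf2 and Igfbp6 passed only without wild-type library 3, and both were above 0 without wild-type libraries 1 and 2.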

How the data were processed

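The deposited values are raw counts, each a number of read pairs assigned to a gene in 1 of 6 libraries. RNA was taken with RNeasy and sequenced from TruSeq libraries, per the labels' protocols. The aligner was STAR 2.7.10a, per the submitters' processing notes, and read pairs were counted with featureCounts over RefSeq exons of mm39 (GRCm39), per the file headers. The header names featureCounts 2.0.0, the submitters' notes 2.0.3. No strand, multi-mapping or overlap option was set, so antisense reads cannot be told apart and reads in shared exons were dropped. Exon lengths came with the deposited table, in which 0 columns of values were unused and 0 rows lacked a name.

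Genotypes were compared by edgeR (4.0.16, under R 4.3.3), which scaled libraries by TMM, kept genes by its filter for group sizes (minimum count 10) and ran its robust quasi-likelihood test. A gene passed when its p, adjusted by Benjamini-Hochberg over all tested genes, was under 0.05. SE is the log2 fold change over the square root of F. Log2 CPM for profiles used a prior count of 2. Simulated counts for this comparison covered 19895 genes, with changes given only to genes of at least 1 CPM on average. Of these, 77% of the 100 changed by 1 on the log2 scale and 96% of the 100 changed by 2 were called. In that step 16 calls were false. These shares were not worked out separately for genes that vary as much as Igf2, Igfbp2 and Igfbp6 (SE 0.68, 0.63 and 0.71). With 3 libraries a group the smallest exact permutation p is 0.1, and single values were therefore not tested that way. Alternatives were RLE size factors, library totals, other filters, a replicate block, each library left out, DESeq2 1.42.0 and limma-voom (limma 3.58.1), with and without quality weights. Pairs of libraries in a group had a chi-square per degree of freedom of at least 8.01, so all 6 were kept. The genes and lists were chosen with earlier results of these data known. Named genes were the 10, Ncoa1, the 2 lowest p in each other IGF list, the 5 profiles nearest to Igf2 and to Igfbp2, and markers that a result turns on.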

Additional observations from a re-analysis of the deposited data

How the results depend on the processing

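Of 149 values of the 10 genes over 15 alternatives, 135 kept their direction and their side of the threshold, 5 passed where the fit with all libraries did not, and 9 changed sign. Under RLE and library totals none of the 10 changed sign or passed. The number of the 10 that passed was 0 with all libraries, 1 with no filter, 2 with DESeq2 and 0 to 2 with 1 library left out. For the other IGF axis genes it was 0, with 1 with no filter (Ghr), 2 with DESeq2 (Ghr and Irs4), 0 to 1 with 1 library left out (Htra1 without wild-type 1) and 1 (Htra1) without wild-type libraries 1 and 2. For all genes it was 169, with 66 with library totals, 966 with no filter, 84 under the stricter one, 821 with DESeq2, 103 and 401 with limma-voom without and with quality weights, 93 without wild-type libraries 1 and 2 and 36 to 260 with 1 library left out.

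With a replicate block the counts were 155 for all genes, 0 for the 10 and 1 for the other IGF genes (Ghrh). The correlations of deviations of same-numbered libraries were -0.21, 0.35 and 0.22, against -0.41 to 0.26 for libraries of different numbers. These values do not settle whether the numbers pair the samples, and the main fit used no block.

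With 1 library left out, Igf1r ran from -0.027 to 0.13, Igfbp7 from -0.13 to 0.053 and Igfbpl1 from -0.76 to 1.05. Insr was -0.013 with library totals. Igfbpl1 was 0.0091 with the replicate block and 0.22 with limma-voom. Without wild-type libraries 1 and 2, a fit in which the lone wild-type library is assumed to vary like the knockout, Igf2 was 0.38, Igfbp2 0.015, Igfbp6 0.14, Igfbp7 0.22, Igfbpl1 1.91 and Insrr 0.011. The causes of these changes were not tested. Igfbp6 had as few as 31 counts in a library and an SE of 0.71, and Igf2 had at least 822 counts and an SE of 0.68.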
